A study of Mus musculus with 4 samples.

Results

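Among the transcripts marked by m6A in embryonic mouse pancreas, 714 genes carried 4 or more listed sites in wild type (WT), and 219 of them had no listed site when Mettl3 was deleted from the pancreatic lineage (KO). These 219 genes were selected on the deposited site lists themselves, as the genes with at least 4 rows in the WT list and no row in the KO list under the same gene identifier. They made up 30.7% of the WT genes with 4 or more sites (95% Wilson interval 27.4 to 34.2%), 4.31% of all 5085 WT genes and 6.94% of the 3156 WT genes without a KO site. They held 1085 of the 10514 WT sites, or 10.3%. Because the rows chose these genes, their site numbers and their lack of KO sites are descriptions. Among all WT genes, 62.1% had no KO site. The count depends on the length of the WT list. With only as many top WT sites as there were KO sites, 117 genes kept 4 or more by fold enrichment and 135 by score. Of these, 25 (21.4%) and 31 (23%) had no KO site. They lie among the 219 by construction, since the KO list was left unchanged.

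The tissue was whole pancreas dissected at E15.5. In the KO, Mettl3 was missing only from progenitor cells expressing Pdx1 and so from their descendants, while other cells of the organ kept the gene, and the driver of the deletion is not named in the labels. WT pancreas was the comparison. Each genotype was represented by 1 m6A pull-down (MeRIP) library and 1 input library, so replicate error is not known for any difference between genotypes, and no test was run. The lists hold no read counts, so sequencing depth is unknown. In whole tissue, fewer cells of a type and less RNA per cell cannot be told apart, and neither can be told apart here from less methylation of the same RNA. Neither list held a Mettl3 site among the rows used, and the lists carry no transcript level with which to check the deletion. Sites were listed for markers of cells inside and outside the Pdx1 lineage. Of 7 acinar markers, 2 had a site in KO (Amy2a5 and Cela1) and 2 in WT (Prss1 and Amy2a5). Of 7 endocrine markers, 2 had a site in KO (Gcg and Chgb) and 5 in WT (Ins2, Gcg, Sst, Chga and Chgb), and of 6 duct or trunk markers, 3 had one in KO and 5 in WT. Of 7 mesenchyme markers, 5 had a site in KO (Col1a1, Col3a1, Pdgfra, Fn1 and Dcn) and 5 in WT (Vim, Col3a1, Pdgfra, Fn1 and Dcn). The endothelial marker Cdh5 and the blood marker Alas2 had a site in both lists, Hbb-bs had one in WT alone, and none of the 5 neural and glial markers had a site in either list.

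N6-methyladenosine (m6A) is a common internal modification of messenger RNA. The methyltransferase Mettl3 deposits it during transcription, in complex with Mettl14 and Wtap, at adenosines within a short consensus centred on GAC, and reader proteins that bind it affect splicing, translation and decay of the transcript. Marks are known to gather in long internal exons and near stop codons, and a long transcript can carry several. In the developing pancreas, Pdx1-positive progenitors give rise to acinar, ductal and endocrine cells.

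A small set of sites included the first bases after an annotated transcription start, where the reference used here gives sequence. A gene can have more than 1 such start, and a start can lie well inside the gene span. The site with such a window lay at 72.5% of the span in Aldh1a1 and at 38% in Aff1. The first 50 bases were read on the strand of the gene. Of the 36 member genes with such a window inside a WT site, 10 held the letters GGAC there, or 27.8%. The reverse complement GTCC was held by 4 of them, or 11.1%. Over all 231 windows of the member genes, inside a site or not, 23.8% held GGAC and 16.5% GTCC, and over all 32851 windows in the reference 18.9% held GGAC and 17.4% GTCC. The 5 windows with GGAC whose sites had the highest fold enrichment are printed here as 30-base stretches, with the motif in capitals, because they show the consensus letters inside sites that were listed in WT and not in KO. They are from RefSeq, build GRCm38, read 5′ to 3′ on the strand of the gene. Supt16, a subunit of the histone chaperone FACT, had the window at chr14:52197190-52197219 (minus strand). Zcchc8, a subunit of the nuclear exosome targeting complex, had it at chr5:123721015-123721044 (minus strand). Atp2b1, a calcium pump of the plasma membrane, had it at chr10:98915167-98915196 (plus strand). Klhl7, an adaptor of a cullin ubiquitin ligase, had it at chr5:24100590-24100619 (plus strand). Mpp6, a membrane scaffold protein, had it at chr6:50110860-50110889 (plus strand).
Supt16: cgagcgcgggtggcggagctgGGACctcgc
Zcchc8: aGGACccgcccctagacggctttggaggcc
Atp2b1: agccccggctggtGGACgccgagtctctgg
Klhl7: gcatgcttgGGACtcccttcgcttgcaacc
Mpp6: gctGGACacatttgcctgaaagcagaaagg
The sites over these windows had fold enrichments of MeRIP over input of 13.75 in Supt16, 11.8 in Zcchc8, 11.59 in Atp2b1, 9.74 in Klhl7 and 9.54 in Mpp6. A match of the letters describes the window and does not place the modified base.

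Most of the 219 genes were close to the limit of the rule. WT listed 4 sites in 115 of them, 5 in 46, 6 in 33, 7 in 15, 8 in 5, 9 in 2, 10 in 2 and 14 in 1. The share of genes without a KO site was lower the more WT sites a gene had. It was 73.8% of genes with 1 WT site, 59.8% with 2, 48.3% with 3, 38.9% with 4, 33.1% with 5, 26.4% with 6, 25% with 7, 13.2% with 8, 11.1% with 9 or 10 and 5% with 11 or more. Just outside the rule on one side were 265 of the 549 genes with 3 WT sites, which also had no KO site. The 5 with the strongest site were Wasl, Rsl24d1, Gsn, Cep20 and Khdrbs3, whose best WT fold enrichments were 17.63, 16.57, 16.53, 16.3 and 16.05. On the other side, 97 genes had 4 WT sites and a single KO site. Srp54a, Vps13d, Akap13, Tsg101 and Agps had the strongest WT sites among these, with KO fold enrichments of 5.29, 7.78, 6.04, 6.66 and 5.2 at the single KO site and best WT fold enrichments of 37.76, 19.29, 18.47, 16.32 and 15.8.

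**Figure D1:**
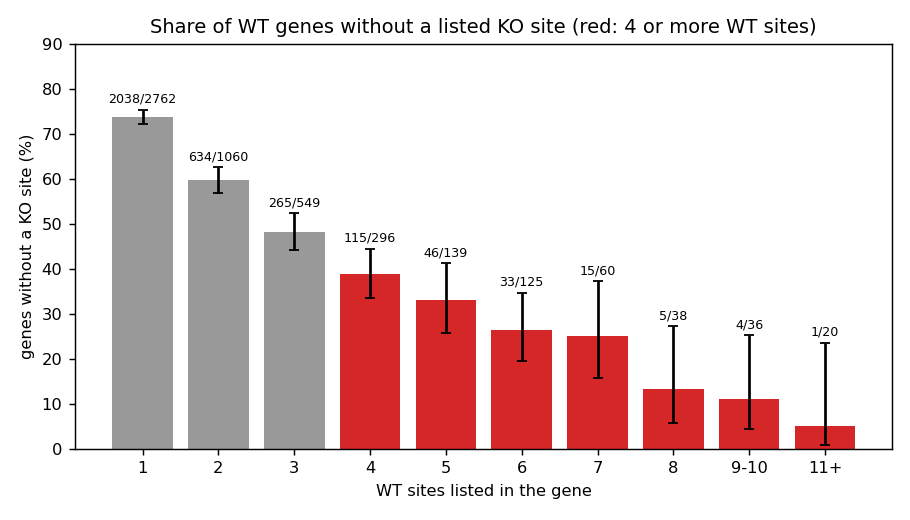
The bars give the percentage of WT genes without a listed KO site, by the number of WT sites in the gene, with 95% Wilson intervals that cover counting error only and the gene counts above. The share is 73.8% for genes with 1 WT site and 5% for genes with 11 or more, and the red bars hold the 219 genes described here.

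The KO list held 3937 sites and the WT list 10514, and the length of the KO list touches every gene called absent from it. The median fold enrichment was 6.2 in KO and 7.91 in WT, and the lowest false discovery rate of any site was 45.92% in KO and 9.75% in WT. The 223 genes with 4 or more WT sites and a single KO site had that KO site at a median fold enrichment of 5.81 and at false discovery rates of 46.1 to 95.8%. Numbers in the peak names rose with position on all 21 chromosomes in both lists, so they can be read as places in each caller's full run, if no number was passed over. They reached 99502 in KO and 94812 in WT, and the listed sites were 3.96% of those numbers in KO and 11.1% in WT.

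The numbering also ran on through the neighbourhoods of the member genes. For 216 of the 219 genes a listed KO site lay on both sides. Between these flanking sites, the KO numbering passed over 7 to 258 numbers, with a median of 59, in windows with a median length of 1202 kb. No gene had a window with 0 KO numbers passed over. With windows this long and 3.96% of KO numbers listed, that outcome was nearly fixed in advance. No other genes were examined in this way. The WT numbering spanned at least 41.5 numbers in the same windows, by the median. Sars, the cytosolic seryl-tRNA synthetase, had the smallest gap, with 7 KO numbers passed over in a window of 79634 bp. The WT numbering spanned at least 7 numbers in that window, 5 of them listed. Rprd2, which binds the tail of RNA polymerase II, had 8 KO numbers passed over in a window of 80070 bp. The WT numbering spanned at least 8 numbers there, 7 of them listed. Which gene each unlisted KO peak fell in is not known, so it was not tested whether any lay in a member gene.

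**Figure D2:**
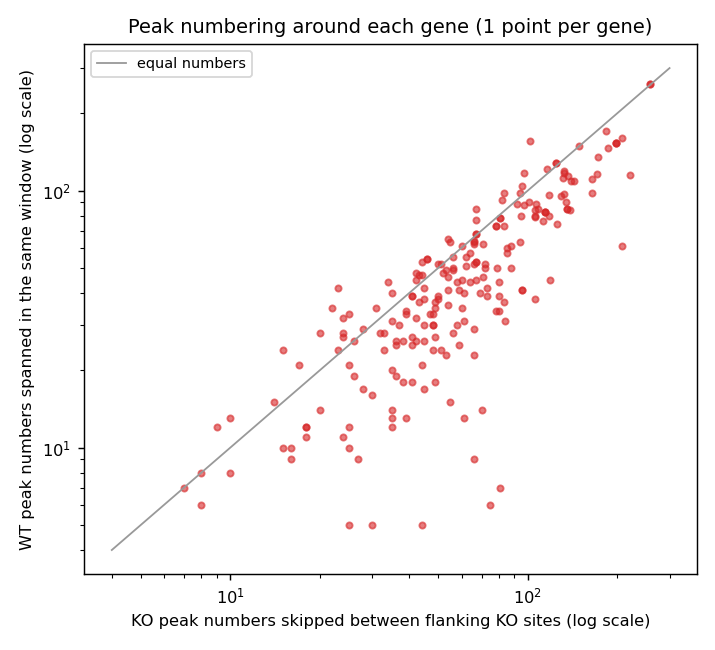
Each point is 1 of the 216 genes with a listed KO site on both sides, plotted by the KO peak numbers passed over between those sites and the WT peak numbers spanned in the same window, both on log scales. The WT value is a lower limit that includes listed sites, and the KO value leaves listed sites out. The lowest value on the KO axis is 7.

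The genes with the most sites came from several classes of protein. Iqgap2, a scaffold that binds actin and the GTPases Rac1 and Cdc42, had no KO site and 14 WT sites between chr13:95627240-95891922 (mm10, minus strand). Their fold enrichments ran from 4.88 to 12.16 with a median of 8.34, and they lay from 0.2% to 99.8% of the gene span, counted from its 5′ end. Ankrd17, an ankyrin repeat protein, had 10 WT sites with fold enrichments of 4.81 to 11.02 and a median of 7.64. Cenpe, the kinetochore motor that aligns chromosomes, also had 10, from 3.45 to 9.73 with a median of 8.01. Herc2, a giant ubiquitin ligase, had 9 sites from 4.05 to 14.11 with a median of 9. The first and the last of them, at opposite ends of the gene, were its strongest, at 14.11 and 13.73.

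Genes with 8 or 7 sites differed widely in how far apart these lay. Tm9sf2, a membrane protein of endosomes and Golgi, had 8 sites within 33367 bp, whereas the 8 sites of Nbea, a BEACH-domain protein of membrane traffic, covered 558504 bp, the widest stretch of all. Pkn2, a serine/threonine kinase, had 7 sites, and the 3 nearest its 5′ end had fold enrichments of 13.48, 16.04 and 13.37, against 6 to 9.86 in the other 4. Atp2b1 had 7 sites from 5.62 to 14.29, 1 of them over the first bases after an annotated transcription start. Carmil1, a regulator of actin capping, had 7 sites from 6.2 to 14.26. Sox6, a transcription factor, had 7 from 4.87 to 12.89, and Ehbp1, an endosomal adaptor, had 7 from 6.51 to 12.89. Ccdc88c, which binds Dishevelled, ranged from 4.88 to 12.16 over 7 sites. Gtf2i, a general transcription factor, ranged from 5.83 to 11.84 over 7, and Naa15, a subunit of an N-terminal acetyltransferase, from 5.9 to 11.59 over 7.

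**Figure D3:**
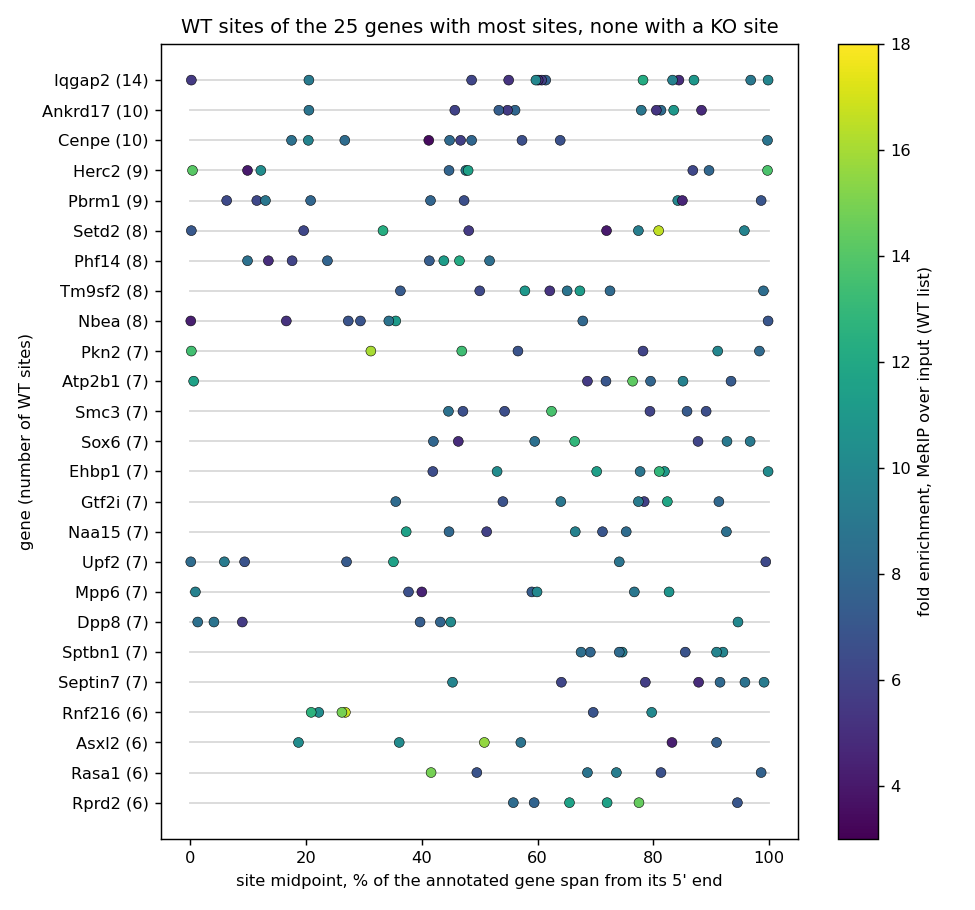
Each row is 1 gene without a KO site, with its WT sites placed by midpoint along the annotated gene span, from 0% at the 5′ end to 100% at the 3′ end, and coloured by fold enrichment. The 25 genes with the most WT sites and a known strand are shown, from Iqgap2 with 14 sites to genes with 6, and the sites of 1 gene differ in colour as well as in place.

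A different set of genes had the strongest sites on the whole. Fam177a had the highest median fold enrichment, with values of 13.24, 13.62, 16.67 and 11.73 at its 4 sites. Their false discovery rates were 27.9%, 60.25%, 64.27% and 13.42% in the same order. The caller's scores, which rise as the p-value falls, were 215.27, 368.32, 379.53 and 123.49. The higher rates of Fam177a thus went with the higher scores. The place of these sites is a separate limit. The sites of Fam177a covered 92619 bp although the annotated gene is 17670 bp long. A KO site named for Srp54b lay between them, so the gene assignment is uncertain. Ufl1, the ligase that attaches the ubiquitin-like protein UFM1, had 7.38, 13.22, 13.91 and 13.54. The 3 stronger sites of Ufl1 lay close together in value and the remaining one was clearly lower. Cyp20a1, a cytochrome P450 of unknown substrate, had 10.17, 13.82, 12.14 and 11.67. Rnf216, a ubiquitin ligase, had 6 sites from 6.87 to 16.78 with 4 of them above 10. Cse1l, which returns importin alpha to the cytoplasm, had 10.46, 12, 12.69 and 10. Single sites reached higher still in Mia3, at 18.14, and Kdm5a, at 17.95. The false discovery rates of these 2 sites were 39.29% in Mia3 and 92.16% in Kdm5a, against a median of 10.7% for member sites. Their scores were 276.07 in Mia3 and 608.87 in Kdm5a, against a median of 85.3 for member sites. A high false discovery rate thus went with a low p-value at these sites. The highest fold enrichment in a gene was 1.13 to 4.11 times its lowest, with a median of 1.87, and for the 495 genes with 4 or more WT sites and a KO site this median was 1.94.

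Chromatin regulators were the largest class, with 15 of the 53 listed chromatin genes that had 4 or more WT sites, or 28.3%, near the 30.7% of all such genes. Their 92 sites had fold enrichments of 3.73 to 17.9 with a median of 8.55, beside 7.91 for all WT sites. Pbrm1, which targets the PBAF remodelling complex, had 9 sites from 4.62 to 9.95, and the last of them was 2864 bp wide. Setd2, the enzyme that trimethylates histone H3 lysine 36, had 8 sites from 4.03 to 16.56, and its strongest site was 140 bp wide whereas its widest, at 4286 bp, had 6.22. Phf14, a PHD finger protein, had 8 sites from 4.88 to 12.14. Chd7, a remodelling ATPase, had 8 from 3.73 to 11.67. Smc3 and Smc1a, both core subunits of cohesin, were both in the class, and Smc3 had 7 sites of which 6 lay between 6.02 and 8.57 and the other at 13.64. Kdm5a, a demethylase of histone H3 lysine 4, had 11.07, 15.62, 9, 10, 17.95 and 8.82. Asxl2, a cofactor of the BAP1 deubiquitinase, had a site at 15.59. Arid4b, of the Sin3 deacetylase complex, had 6 from 6.17 to 11.85, and Suz12, a core subunit of Polycomb repressive complex 2, was also a member.

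Genes of RNA processing and translation followed. Of 27 RNA processing genes with 4 or more WT sites, 12 had no KO site, or 44.4%, and of 23 translation and tRNA genes 10 had none, or 43.5%, beside 30.7% overall. Neither share was tested, and the classes were not matched for WT sites per gene, with which the share fell. The sites of the RNA genes had a median fold enrichment of 7.83, and those of the translation genes 7.33, beside 7.91 for all WT sites. Upf2, which acts in nonsense-mediated decay, had 7 sites from 6.3 to 11.57. Cnot1, the scaffold of the CCR4-NOT deadenylase, had 8.18, 7.26, 5.23, 5.44, 9.78 and 7.95. Sf3b1, the branch point component of the U2 particle, had 6 sites within 18757 bp, at 4.32 to 8.12. Xrn2, the nuclear exonuclease of transcription termination, had 7.92, 10.78, 12.78, 12.32 and 9.86, the strongest set of this class by its median. Hnrnpm, a splicing regulator, had 9.08, 7.25, 12.24 and 8.71, and Hnrnpr, an RNA-binding relative, had 8.38, 4.14, 4.52 and 11.15. The sites of Hnrnpr thus formed a weak and a stronger pair within 5657 bp. Rc3h2, an RNA-binding ubiquitin ligase, had 7.68, 7.47, 8.36, 7.66, 5.25 and 8.51. Tnrc6c, a scaffold of microRNA silencing, had 7.64, 5.55, 8.76 and 10.46.

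The aminoacyl-tRNA synthetase genes Tars, Sars and Nars were 3 members of the 8 genes of the aminoacyl-tRNA pathway with 4 or more WT sites. That is 37.5%, beside 30.7% of all such genes. Tars, for threonine, had 5, 5.85, 3.48, 5, 8.24 and 6.17, the lowest set of the class. Sars had 4.46, 7.78, 10.3 and 8.33. Abce1, which splits ribosomes for reuse, had 8.31, 7.69, 9.49, 9.22 and 14.42. The initiation factor genes Eif2s1, Eif2s3x and Eif3e were members and 6 further Eif genes with 4 or more WT sites had a KO site. Eif2s3x has a near-identical copy on the Y chromosome, so its sites are uncertain; their values were 4.71, 6.31, 6.93, 6.98 and 9.53. Gspt1, the termination factor that hydrolyses GTP, had 8.96, 10.48, 6.26 and 5.69, and 2 of its sites lay 42 bp apart, the smallest distance in any member. The mitochondrial ribosome genes Mrps9, with 10.16, 10.75, 7.3, 8.82 and 6.6, and Mrpl42, with 10.95, 9.52, 6.31 and 8.72, were members as well.

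Membrane traffic and the cytoskeleton made up the next classes. Of 35 endosome, Golgi and autophagy genes with 4 or more WT sites, 12 had no KO site, or 34.3%, near the 30.7% of all such genes. Mia3 and Mia2, partners at endoplasmic reticulum exit sites that load large cargo, were both members. Mia3 had 7.85, 4.77, 8.04, 18.14 and 4.79, so 1 site stood far above the others, and Mia2 had 7 sites from 5.24 to 11.64. Sec24d, a cargo adaptor of COPII vesicles, had 5.23, 14.13, 15.54 and 6.81, with the strong sites in the middle. Vps36, of the ESCRT-II complex, had 9.32, 9.73, 12.65 and 6.28 within 9399 bp, and 8 KO peak numbers were passed over around it. Picalm, a clathrin adaptor, had 4.15, 7.58, 4.72, 8.78 and 8.24. Golga3, a golgin, had 7.31, 6.8, 8.86, 7.07 and 8.82, a narrow range. Itsn2, an endocytic scaffold, had 7.98, 6.97, 8.75 and 11.92.

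The motor genes held 7 members of 20 with 4 or more WT sites, or 35%, near the 30.7% of all such genes. Kinesins formed the largest family by shared name, with Kif13b, Kif1b, Kif21a and Kif23 of 7 Kif genes with 4 or more WT sites. The other Kif genes, Kif16b, Kif4 and Kif5b, had a KO site. Name families hold few genes, and no family share was tested against the 30.7% of all such genes. Kif13b, a transport kinesin, had 7.95, 11.25, 8.76, 10.46, 12.99 and 6.4. Kif21a, also a kinesin, had 8.95, 6.02, 6.52, 6.16 and 5.88, a range that overlapped that of Kif13b. Kif23, which acts in cytokinesis, had 8.52, 7.78, 4.56 and 9.96. The myosins Myo5c and Myo9a and the dynein chain gene Dync1i2 completed the class. Myo9a, an unconventional myosin, had 9.38, 8.27, 7.54, 14.11 and 5.62, and Myo5c had 4.85, 5.56, 8.09, 6.21, 6.67 and 7.1. Dync1i2 had a site over an annotated transcription start at 3.69 and others at 9.6, 4.97 and 5.72. The other name families with 3 members were the Eif genes above and the ATPase pump genes Atp2b1, Atp2c1 and Atp7a, of 7 Atp genes with 4 or more WT sites. Atp2c1, the Golgi calcium and manganese pump, had 6.38, 11.01, 11.32 and 6.94. Atp7a, the copper pump, had 8.5, 6.44, 5.84, 8.89 and 8.

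**Figure D4:**
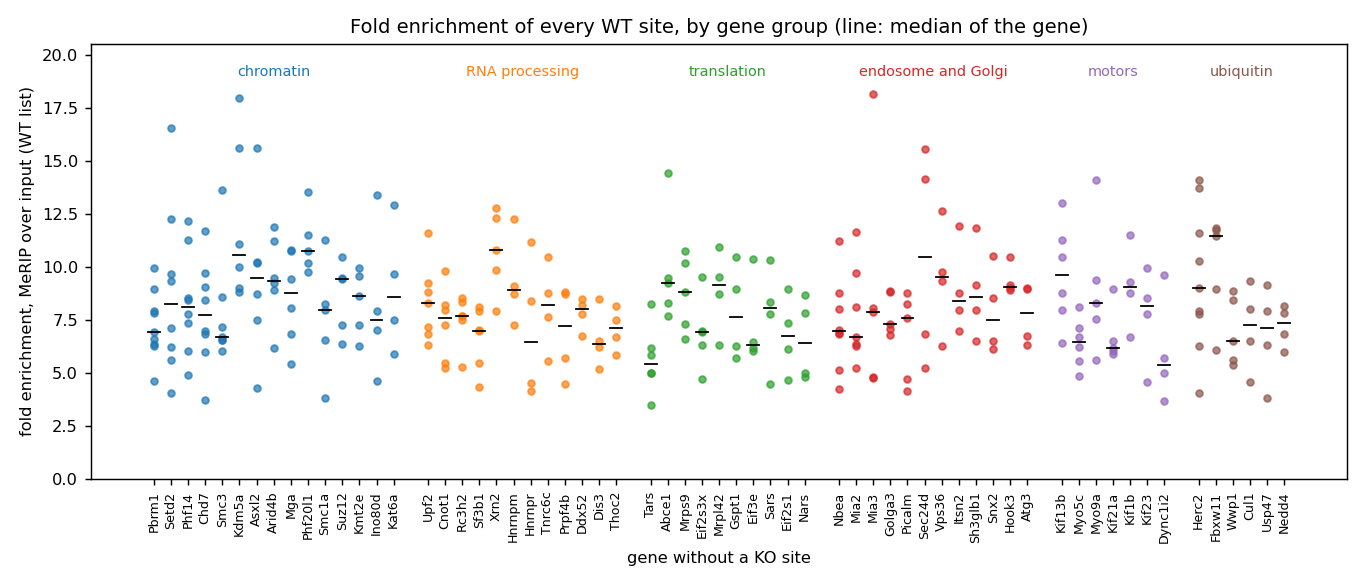
Each point is 1 WT site of a gene without a KO site, plotted by fold enrichment of MeRIP over input, with a line at the gene's median, for 6 of the gene classes. The medians of most genes lie close to the 8 of all member sites, and single sites of Mia3 and Kdm5a reach 18.14 and 17.95.

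Ubiquitin ligases and signalling genes were represented by fewer members. Of 28 ubiquitin genes with 4 or more WT sites, 6 had no KO site, or 21.4%, beside 30.7% of all such genes. Fbxw11, an F-box protein that recognises beta-catenin, had 8.94, 11.45, 11.83, 6.09 and 11.74. Cul1, the scaffold of its ligase complex, had 4.56, 8.03, 6.51 and 9.33. Wwp1 and Nedd4, related HECT-type ligases, had 5.59, 6.51, 5.35, 8.45 and 8.85 in Wwp1 and 6.85, 5.99, 8.17 and 7.84 in Nedd4. Usp47, a deubiquitinase, had 7.89, 3.79, 9.12 and 6.32. In the Wnt list 3 of 6 genes with 4 or more WT sites were members, or 50%. These were the co-receptor Lrp6, the destruction complex scaffold Apc and the nuclear effector Tcf7l2. Lrp6 had 7.78, 10.12, 8.23, 9.15, 6.52 and 10.58. Apc had 6.01, 9.89, 9.47, 6.95 and 6.83, and the last site was 8775 bp wide, the widest of all 1085. That widest site had a false discovery rate of 100%, and also the highest score of any member site, at 769.79. By the authors' pathway terms, which 93 of the 219 genes carried, 6 of 11 Wnt pathway genes with 4 or more WT sites were members, 5 of 9 for Hippo, 9 of 23 for endocytosis, 6 of 14 for spliceosome, 4 of 18 for MAPK and 3 of 21 for regulation of actin cytoskeleton, beside 30.7% of all genes with 4 or more WT sites. In percent these were 54.5% for Wnt, 55.6% for Hippo, 39.1% for endocytosis, 42.9% for spliceosome, 22.2% for MAPK and 14.3% for actin cytoskeleton, each over few genes and none tested. These classes share genes. Fbxw11, Apc and Tcf7l2 were each counted in both the Wnt and the Hippo terms. The Hippo share also depended on the list. In the Hippo list used here, 2 of 10 genes with 4 or more WT sites were members, or 20%, namely Fat4 and Amotl1.

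Among other signalling genes, Bmpr2, the type II receptor for bone morphogenetic proteins, was the only gene of its list with 4 or more WT sites, and it had 6, 7.46, 10.95, 10, 5.19 and 6. Rasa1, a GTPase activator for Ras, had 7.66, 6.71, 9.27, 8.79, 6.82 and 14.84. Igf2r, the receptor that clears insulin-like growth factor 2, had 7.75, 6.76, 4.93, 8.65, 4.98 and 5.04. Pik3ca, a catalytic subunit of PI3-kinase, had 6.21, 11.13, 9.73, 7.93 and 8.37. Mib1, the ligase that activates Notch ligands, had 4.64, 4.72, 6.5 and 8. It was 1 of 6 Notch pathway genes with 4 or more WT sites, or 16.7%, beside 30.7% of all such genes. Fat4, a large cadherin of the Hippo pathway, had 5.71, 6.1, 7.14, 6.83 and 5.56, and 3 of its 5 sites were 5195, 4350 and 3005 bp wide. Among adhesion genes Dsp, the desmosome linker, had 8.5, 10.8, 9.32, 13.61 and 8.59. Dsg2, a desmosomal cadherin, had lower values of 8.55, 4.96, 6.49 and 5.52. Sema3d, a secreted guidance cue, had 7.54, 13.38, 12.6 and 10.27, and Magi3, a junction scaffold, had 8.27, 7.96, 6.18 and 8.89.

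Regulators of small GTPases and genes of cell division gave further members. Of 18 small GTPase regulators with 4 or more WT sites, 5 had no KO site, or 27.8%, near the 30.7% of all such genes. Dennd4c, an exchange factor for Rab proteins, had 6.57, 7.86, 13.21, 5.49, 5.39 and 7.93, with a single site above the rest. Rab3gap1, a subunit of a Rab3 GTPase activator, had 11.15, 9.82, 8.15 and 5.88 from the 5′ to the 3′ end. Tbc1d1, a Rab GTPase activator, had 8.22, 8.97, 6.56 and 8.4, and Arhgap18, also a GTPase activator, had 8.29, 7.36, 8.13 and 8.52, so the sites of both were alike in strength. Of 14 cell cycle genes with 4 or more WT sites, 4 were members, or 28.6%, also near that share. Beside Cenpe and Kif23 these were Cdk12, a kinase of RNA polymerase II, with 5.22, 6.09, 7.87 and 7.86, and Ndc80, of the outer kinetochore, with 6.81, 7.3, 6.87 and 5.68. Top1, which relaxes supercoiled DNA, was 1 of 9 replication and repair genes, or 11.1%, and had 8.62, 8.87, 8.78 and 7.34. Cdk5rap2, a centrosome protein, was 1 of 10 centrosome and cilium genes, or 10%, and had 6.92, 12.5, 7.79 and 8.59. Zfp827, a zinc finger protein, was 1 of 5 in its list, with 8.29, 15.68, 6.06, 10.95 and 6.7.

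The member genes were spread over the genome. Each autosome and the X chromosome held at least 3 of them. The share of genes with 4 or more WT sites that had no KO site ran from 18.8% on chromosome 16, with 3 of 16 genes, to 44.8% on chromosome 13, with 13 of 29 genes. These chromosomes hold few such genes, and the difference was not tested.

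Lists for the pancreatic lineage and for cells outside it each held few genes with 4 or more WT sites. Of such genes, 2 of 3 progenitor and endocrine regulators, 1 of 4 acinar and duct genes, 0 of 4 islet hormone and granule genes, 1 of 14 mesenchyme and matrix genes and 0 of 1 endothelial, blood and neural genes had no KO site, beside 30.7% overall. No difference between these lists was tested. Tcf7l2, on the list of progenitor regulators, had 9.47, 8.94, 10.95, 8.87, 9.17 and 5.62 across chr19:55817764-55933494 (plus strand), and 5 of its 6 sites lay between 87% and 99.4% of the gene span. A KO site named for another gene, Ppnr, lay within that stretch. The mesenchyme member was Zeb2, a repressor of epithelial genes, with 10.97, 11.88, 14.38 and 9.26. None of the 7 nuclear receptor and coactivator genes was a member, nor either of the 2 m6A machinery genes with 4 or more WT sites. Of the 27 gene lists, 22 held a member, and 127 of the 219 genes were in none.

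Neighbouring sites of member genes were separated by a median of 6346 bp, with quartiles of 2674 and 14443 bp. The median was 6210 bp in the 495 genes with a KO site. These distances were taken on the genome, so they include any introns and are not spacings along the mRNA. Distances under 1000 bp made up 6.12% of the 866 neighbouring pairs in members (Wilson interval 4.71 to 7.92%) and 6.03% in genes with a KO site (5.15 to 7.05%). Distances of 1000 to 10000 bp made up 58% in members and 58.5% in genes with a KO site, and longer ones 35.9% in members and 35.5% in genes with a KO site. The intervals overlapped in each class. The reference used here gives gene spans without exons, so whether a site was exonic or intronic was not analysed here.

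The 5 smallest median distances were 1134 bp in Ambp, which encodes the precursor of alpha-1-microglobulin and bikunin, 1477 bp in Slk, a Ste20-like kinase, 1542 bp in Sars, 1556 bp in Pdcd4, an inhibitor of translation initiation, and 1563 bp in Fam114a1. Ambp also had the narrowest stretch of sites, 5 sites within 5472 bp of a gene of 10898 bp, at 4.31, 7.61, 9.46, 7 and 10.54. The 5 largest medians were 100733 bp in Syne1, the giant nuclear envelope protein nesprin-1, 85649 bp in Ppp1r9a, an actin-binding phosphatase partner, 66949 bp in Srgap2, a GTPase activator for Rac, 59338 bp in Nbea and 47633 bp in Chchd3, a protein of the mitochondrial inner membrane. The 4 sites of Syne1 were nonetheless alike in strength, at 7.24, 7.85, 7.78 and 8.27.

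In 13 genes every WT peak number from the first site to the last was a listed site, among them Rprd2, Srp68, Sf3b1, Hnrnpr, Mrpl42, Ruvbl1 and Incenp. Over all members, 34.8% of the 3118 WT numbers across their sites were listed. The next number followed directly at 41.1% of neighbouring pairs in members and 42.2% in genes with a KO site. In Iqgap2, 14 of 46 numbers were listed, and in Nbea 8 of 81.

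Member genes spanned less of the genome than the multi-site genes with a KO site. The median gene span was 69 kb in members and 92.2 kb in genes with a KO site, and the median stretch from first to last site was 34.8 kb in members and 49.6 kb in genes with a KO site. Among genes with exactly 4 WT sites the gene span was 60.5 kb in members and 87.3 kb in genes with a KO site, and the median distance between neighbouring sites was 6304 bp in members and 8438 bp in genes with a KO site. Sites per 10 kb of gene were 0.719 in members and 0.616 in genes with a KO site. The quartiles of gene span overlapped, at 40.3 to 114 kb in members and 52.3 to 137 kb in genes with a KO site, and a difference in span was not tested against chance. The single sites were alike in size and strength. The median fold enrichment was 8 in members and 7.91 in genes with a KO site, the median width 163 bp in members and 167 bp in genes with a KO site, and the median false discovery rate 10.7% in both.

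Within the gene, the midpoints of member sites had their median at 61.7% of the span from the 5′ end. Among the 175 members with a known strand, 14% of 872 sites lay in the last 10% of the gene span (interval 11.8 to 16.5%), beside 15.9% (14.5 to 17.5%) for multi-site genes with a KO site and 26.9% (25.7 to 28.1%) for genes with 1 to 3 WT sites. The first 10% held 8.14% of member sites, 6.63% of the sites of multi-site genes with a KO site and 11.2% of the sites of genes with 1 to 3 WT sites. The member interval overlapped that of multi-site genes with a KO site at both ends of the gene. Of the members, 55.4% had a site in the last 10% and 14.3% had their strongest site there. Wide sites were a feature of the 3′ end, where 29.5% of member sites were at least 1000 bp wide (22.1 to 38.1%), against 4% elsewhere (2.82 to 5.65%). In multi-site genes with a KO site, 29.3% of sites in the last 10% of the span and 3.41% elsewhere were this wide.

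**Figure D5:**
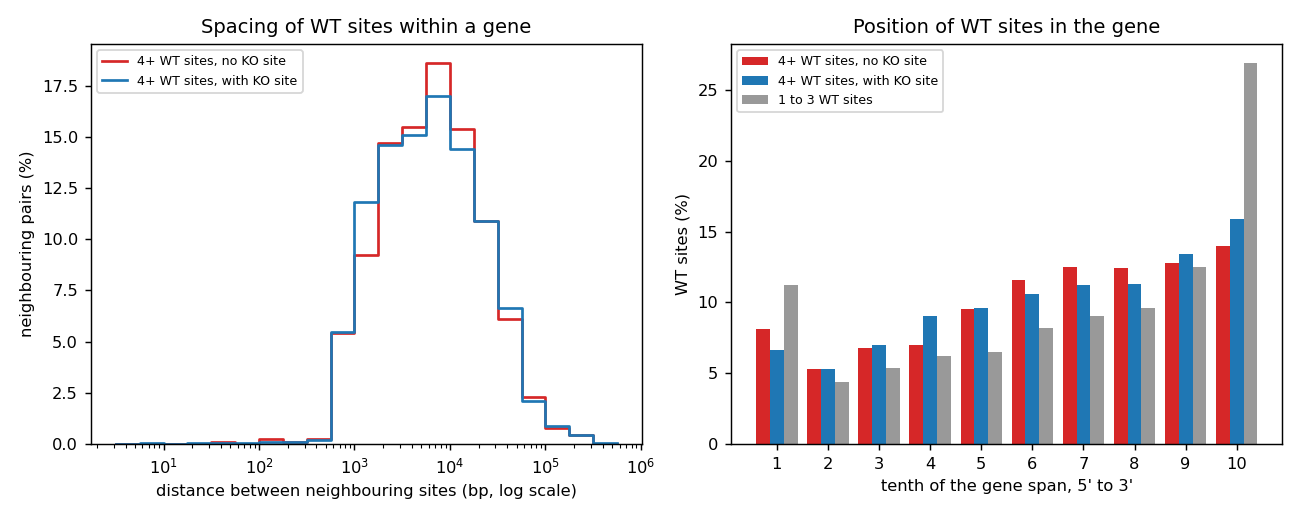
The left panel gives the percentage of neighbouring site pairs by genomic distance on a log axis. The right panel gives the percentage of sites in each 10% of the gene span from the 5′ to the 3′ end. The distance curves of member genes and of multi-site genes with a KO site nearly coincide, with medians of 6346 bp in members and 6210 bp in genes with a KO site, and genes with 1 to 3 WT sites have 26.9% of their sites in the last 10%, against 14% in members.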

How the data were processed

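Per the submitters' processing notes, reads were handled with cutadapt 1.9.3 and HISAT2 2.0.4, and the build was mm10. How the listed sites were taken from all called peaks, and the caller's version, are not stated in those notes. Per the file headers, the deposited score restates the caller's p-value as a multiple of its negative log10. The deposited fold enrichment of a site is the ratio that the caller gave for MeRIP against input. The deposited false discovery rate reaches 100 and was taken as a percent. Each MeRIP library is assumed to have been paired with its own genotype's input. All of these belong to single peaks as the authors gave them, and they rank and describe sites within a list. Where KO and WT values stand side by side, or alternatives apply the same minimum to both lists, no scaling was done to make the lists comparable, and no ratio was taken.

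Starts were read as 0-based, since 442 WT sites then begin at an annotated gene start, against 36 otherwise, and are printed 1-based. Gene names came from a GRCm38.p6 table, which named 217 of the 219 genes by identifier and 2 by transcript. It gave a span for 217 and the promoter table a strand for 175. Distances run on the genome from the end of a site to the start of the next. Positions are from site midpoints, with sites beyond the annotated span placed at its end. The genes and gene lists were chosen with earlier results of these data known. Genes to name were the 20 with most sites, the 8 with the highest median fold enrichment, the 5 with the smallest and the 5 with the largest median distance, the narrowest and widest stretches, up to 8 members per list and families with at least 3 members. Other genes in the text were picked with their values known. Wilson intervals (95%, scipy) cover counting error over genes or sites, which are not replicates. The code was tested on simulated data. Some genes that the rule took are left out of the text.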

Additional observations from a re-analysis of the deposited data

How the results depend on the processing

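Without replicates or read counts, neither a left-out library nor a test could be tried, and depth is unknown. The number of member genes was 219 and their share of multi-site genes 30.7%. Requiring at least 3, 5 or 6 sites gave 484, 104 and 58 genes, at 38.3%, 24.9% and 20.8%. Shortening the WT list to the KO length gave 25 of 117 genes (21.4%) by fold enrichment and 31 of 135 (23%) by score. These lie among the 219 by construction, so the overlap is no check. The share was 42% when sites of either list needed a false discovery rate of at most 50%, 38.1% when they needed a fold enrichment of at least 5, and 40.2% when the only KO sites counted were those of any name within the stretch of a gene's WT sites. These gave 287, 244 and 287 genes, of which 209, 189 and 217 were among the 219. The cut on false discovery rate kept 97.1% of WT sites and 70.1% of KO sites, so it mainly shortened the KO list. Merging sites within 100 or 1000 bp, or matching by name, left 218, 204 and 219 genes. The median distance of 6346 bp became 6746 bp between midpoints, 6194 bp within the same transcript and 6555 bp in genes with at least 6 sites. The median width of 163 bp became 143 bp for the strongest site of each gene. The median fold enrichment stayed between 8 and 8.05.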
